A study of Drosophila melanogaster with 54 samples.

Results

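Binding of Hox proteins and their cofactors was examined at a set of segmentation genes. The genes were cad, hb, Kr, eve, h, run, odd, opa, en and inv, 10 of the 13945 protein-coding genes on the 6 chromosome arms, and they act at successive steps of Drosophila segmentation. All bound regions that came within 5 kb of the annotated body of 1 of these genes were taken from the lists of 18 ChIP-seq groups. At a peak threshold of q 0.01 this gave 214 of the 116680 regions in the 18 lists, and no region was counted for more than 1 gene. At q 1e-10 it gave 100 of 55094 regions in 17 lists, since Exd+Hth was not used here at that threshold.

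The groups were Kc167 cells, a Drosophila line of embryonic origin, transiently transfected with 1 construct for a GFP fusion protein. In 8 groups the construct was bicistronic and made a Hox protein together with Homothorax (Hth): Lab+Hth, Pb+Hth and Dfd+Hth of the head, Scr+Hth and Antp+Hth of the labial segment and thorax, and Ubx+Hth, Abd-A+Hth and Abd-B+Hth of the posterior thorax and abdomen. In their 8 counterparts, called by the name of the Hox protein, it was made without Hth. Hth by itself and Exd+Hth, in which Extradenticle (Exd) and Hth were both supplied, were the remaining groups. All 18 groups shared the copper-inducible metallothionein promoter, induction with 1 mM copper sulphate for 4 h, fixation in 1% formaldehyde for 10 min, sorting for a common range of GFP and an antibody against GFP, so the proteins were expressed from plasmids in a line that makes Exd but, per the study, no Hth of its own. Each group had 2 ChIP libraries and 1 input library, 54 samples in all. The study lists equal read totals for the inputs of Abd-A and Abd-B, and for those of Abd-A+Hth and Abd-B+Hth, so these inputs may be shared. The lists combine both libraries of a group and carry no read depth, height or score, so no value below has a replicate error, and the 8 Hox proteins are the units of the test of Hth. The study lists the Ubx, Abd-A and Abd-B groups on another sequencing platform than the rest, and a possible part of this in any difference between proteins was not tested. Gene expression was not measured in these files, so the state of the 10 genes in the cells is not given by them.

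Segmentation in the fly embryo runs as a cascade of transcription factors. Broad gradients such as that of Caudal (cad) and the gap genes hunchback (hb) and Krüppel (Kr) act upstream of the pair-rule genes. Here these are even skipped (eve), hairy (h), runt (run), odd skipped (odd) and odd paired (opa). The pair-rule genes position the stripes of segment polarity genes such as engrailed (en) and its neighbour and paralog invected (inv). Hox genes are set by the same cascade, and Hox proteins then give the segments their identity. Hth carries Exd into the nucleus, and a Hox protein paired with Exd recognises a longer DNA sequence than a Hox protein without it.

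The 6 stretches of DNA below are printed because the results turn on them, all taken from the Release 6 reference sequence (dm6), plus strand of the arm, 5′ to 3′. An Exd-Hox sequence was counted as TGATTAAT, TGATTGAT or TGATTTAT on either strand, and capitals mark it in the first 3. The run stretch (chrX:20690540-20690667) ends 3 bp before the start of run and was covered by the only regions of that gene, all with Hth. The cad stretch (chr2L:20787183-20787310) lies downstream of cad, before the start of the neighbouring gene Pomp, a proteasome assembly factor. The h stretch (chr3L:8674760-8674887) lies upstream of h within a wide region of Dfd+Hth.
run start: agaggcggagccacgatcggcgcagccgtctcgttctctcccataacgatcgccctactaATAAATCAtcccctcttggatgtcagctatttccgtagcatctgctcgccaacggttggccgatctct
cad downstream: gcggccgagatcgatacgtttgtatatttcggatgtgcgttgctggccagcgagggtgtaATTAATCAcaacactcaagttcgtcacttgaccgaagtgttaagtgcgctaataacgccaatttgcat
h upstream edge: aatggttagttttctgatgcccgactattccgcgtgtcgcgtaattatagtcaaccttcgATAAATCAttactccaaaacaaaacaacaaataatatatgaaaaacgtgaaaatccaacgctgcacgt

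The next 3 stretches come from sites bound in 17 or all 18 of the lists. None of them holds an Exd-Hox sequence, and capitals mark the shorter core, TGATT followed by A, G or T, on either strand, found once in the cad stretch and not in the h and opa stretches. The cad stretch (chr2L:20783194-20783393) is the middle of a 303 bp segment, just past the end of cad, that the regions of all 18 lists share. The h stretch (chr3L:8675607-8675758) is the part before the transcript start of a 225 bp segment shared by all 18 lists. The opa stretch (chr3R:4852424-4852688) is the 265 bp segment shared by the 17 lists with a region at opa.
cad end: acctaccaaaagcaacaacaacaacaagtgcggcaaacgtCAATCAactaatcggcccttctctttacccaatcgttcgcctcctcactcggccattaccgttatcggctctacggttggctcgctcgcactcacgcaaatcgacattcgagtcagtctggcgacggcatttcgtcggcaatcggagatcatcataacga
h start: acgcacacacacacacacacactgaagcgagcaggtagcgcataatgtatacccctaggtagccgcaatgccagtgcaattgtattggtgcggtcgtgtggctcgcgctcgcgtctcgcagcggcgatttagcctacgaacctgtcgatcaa
opa start: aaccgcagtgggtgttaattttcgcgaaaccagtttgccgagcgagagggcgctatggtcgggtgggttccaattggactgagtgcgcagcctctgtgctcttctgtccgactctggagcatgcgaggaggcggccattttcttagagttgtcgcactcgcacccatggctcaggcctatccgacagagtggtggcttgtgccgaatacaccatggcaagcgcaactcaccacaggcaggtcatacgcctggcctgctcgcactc

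The 10 genes split into those bound in nearly every list, those bound in a few and those bound in none. Cad, h and inv had a region within 5 kb in all 18 lists, opa in 17 and en in 15. Eve had one in 7 lists and run in 3, and hb, Kr and odd had no region in any list. The median over the 10 genes was 11 lists, against a median of 9 lists over all protein-coding genes. Over all protein-coding genes, 12.8% had a region in 18 lists, 19.0% in at least 17, 28.5% in at least 15, 60.0% in at least 7 and 74.0% in at least 3, and 16.3% had none in any. The 10 genes were longer than usual, with a median body of 5718 bp against 2166 bp over all protein-coding genes, and the part of length in these counts was not tested.

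**Figure D1:**
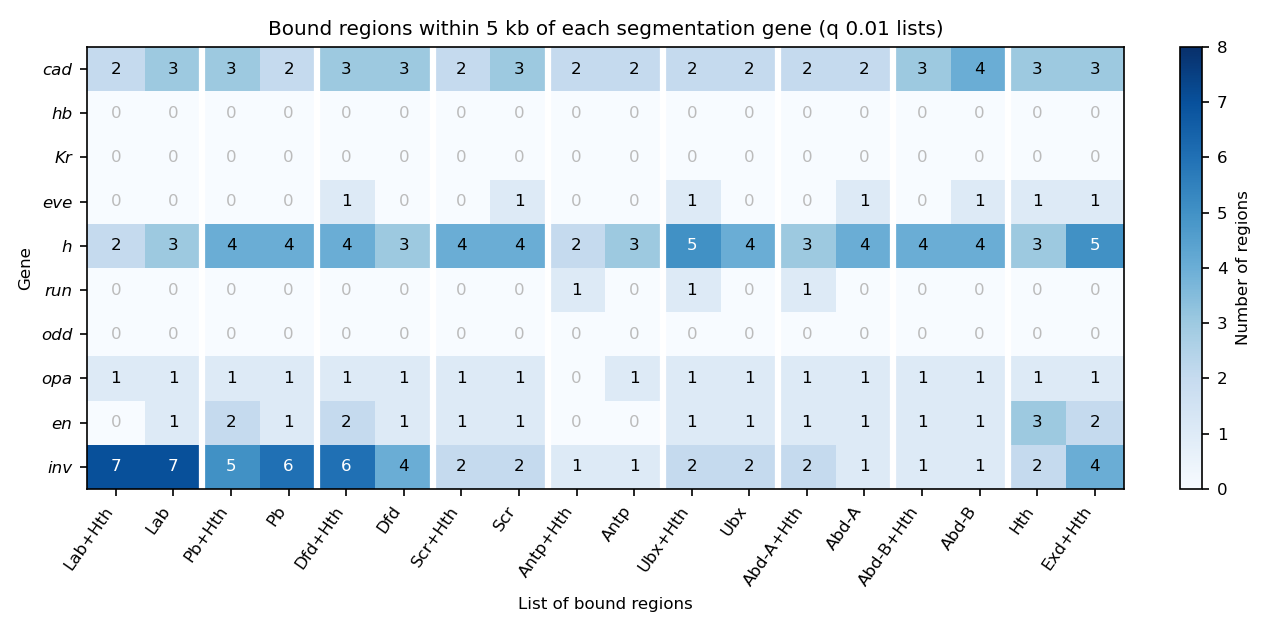
Number of bound regions within 5 kb of each of the 10 genes (rows) in each of the 18 lists at q 0.01 (columns), with the Hox protein with Hth to the left of the same protein without Hth, and Hth and Exd+Hth at the right. The rows of hb, Kr and odd hold 0 throughout, and inv has 4 to 7 regions with Lab, Pb and Dfd and 1 or 2 with the other Hox proteins.

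Read list by list, the 10 genes stood close to the share of the genome that each protein reached. Lab+Hth had a region at 4 of the 10 genes, against Lab at 5, and these lists reached 32.9% and 29.8% of all protein-coding genes. Pb+Hth and Pb each had a region at 5 genes (40.0% and 41.9% of all genes). Dfd+Hth had 6 genes and Dfd 5 (76.3% and 62.9%), and Scr+Hth had 5 and Scr 6 (54.5% and 58.8%). None of these counts was tested against the share of all genes. Antp+Hth and Antp each had 4 genes (25.0% and 35.2%), and Ubx+Hth had 7 and Ubx 5 (48.0% and 38.0%). Abd-A+Hth and Abd-A had 6 genes each (51.6% and 48.5%), and Abd-B+Hth had 5 and Abd-B 6 (67.3% and 70.3%). Hth had 6 genes (46.9%) and Exd+Hth 6 (70.7%). Over the 8 Hox proteins this made 42 of 80 pairs of a gene and a protein with Hth, and 42 of 80 without. All 8 Hox proteins with Hth had a region at 3 genes (cad, h and inv), where 17.0% of all protein-coding genes had one. All 8 without Hth had a region at 4 genes (cad, h, opa and inv), where the share of all genes was 19.2%.

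The gradient and gap genes at the top of the cascade were at opposite ends. Cad (chr2L:20770731-20783135, plus strand), a homeodomain activator of posterior development, had 46 regions that merged into 4 sites. Hb (chr3R:8690980-8697822, minus strand) and Kr (chr2R:25226611-25231394, plus strand), both zinc finger repressors of the gap class, had none in any list at either threshold. The nearest region of any list was 13.71 kb from hb and 110.65 kb from Kr, and both belonged to Exd+Hth. No list had a region in the last 170.98 kb of arm 2R, a stretch with 11 protein-coding genes that includes Kr, so the absence at Kr was shared by its neighbours. The files do not show whether peaks could be called in this stretch, and 0 regions at Kr does not tell unbound from not measurable. Around hb the stretch without any region was 34.86 kb long and held 3 protein-coding genes.

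The 4 sites of cad differed in how many proteins they held. The site at the end of the gene (chr2L:20782964-20783607) overlapped the last bases of the transcript, had its centre just downstream, and held all 8 Hox proteins with Hth, all 8 without, Hth and Exd+Hth. It was also found in 13 of the 17 lists at q 1e-10, which left out Lab+Hth, Pb+Hth, Antp+Hth and Antp. The downstream site (chr2L:20786904-20787946) likewise appeared in all 18 lists and in 10 at q 1e-10. Its centre was 231 bp from the start of Pomp and 16.53 kb from the nearest start of cad, so it lay nearer to Pomp. Without it cad still had a region in all 18 lists, through the site at its end. The centre of that end site was also nearer to the start of Pomp (4371 bp) than to a start of cad (12.39 kb). The site at the cad start (chr2L:20770170-20770842) held Dfd and Abd-B with Hth, against Lab, Dfd, Scr and Abd-B without, and also Hth and Exd+Hth, and was in no list at q 1e-10. Only its Abd-B+Hth and Exd+Hth regions overlapped the start, and the others ended upstream of it. The intronic site (chr2L:20775752-20776245) was found with Abd-B without Hth and in no other list. Cad had 637 to 2116 covered bp (median 1133.5) over the 8 Hox proteins with Hth, against 748 to 2197 (median 1078) without. The ranges overlapped almost wholly, and 4 proteins covered more with Hth and 4 less.

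Among the pair-rule genes, h carried most of the regions. H (chr3L:8675759-8679253, plus strand, listed as hry in the annotation), a basic helix-loop-helix repressor, had 65 regions in 6 sites and was the only gene of the 10 with a region in all 17 lists at q 1e-10. The widest site (chr3L:8678791-8682432) ran from the end of the transcript to beyond 3 kb downstream of the gene, and every one of the 18 lists had at least 1 region there, 25 in all. Its regions were 309 to 3498 bp wide with a median of 1602 bp, where the median width of a region over whole lists ran from 392 to 723.5 bp. The site over the start of h (chr3L:8674531-8676257) was also in all 18 lists, and in 12 of 17 at q 1e-10. Lab and Antp in both conditions and Ubx without Hth were missing there. A site 3.12 kb upstream (chr3L:8672054-8673220) held 6 Hox proteins with Hth and 6 without, Ubx with Hth in place of Antp without it. Lab and Hth had no region there. A narrower site next to it (chr3L:8673342-8673674) held Pb and Abd-B in both conditions and no other protein. The site farthest downstream (chr3L:8682867-8684344) held Dfd and Scr with Hth, against Scr without, and Exd+Hth, and 1 region inside the transcript's end (chr3L:8678217-8678728) was listed for Exd+Hth by itself.

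The region counts of h hardly separated the conditions. H had 2 to 5 regions (median 4) over the 8 Hox proteins with Hth, against 3 to 4 (median 4) without. The covered length was 1813 to 5523 bp (median 3849.5) with Hth, against 1813 to 4720 bp (median 3781) without. Dfd+Hth covered 5523 bp of h, against 3989 bp for Dfd, and Ubx+Hth covered 3049 bp, against 1983 bp for Ubx. Antp went the other way, with 1813 bp for Antp+Hth against 2605 bp for Antp.

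**Figure D2:**
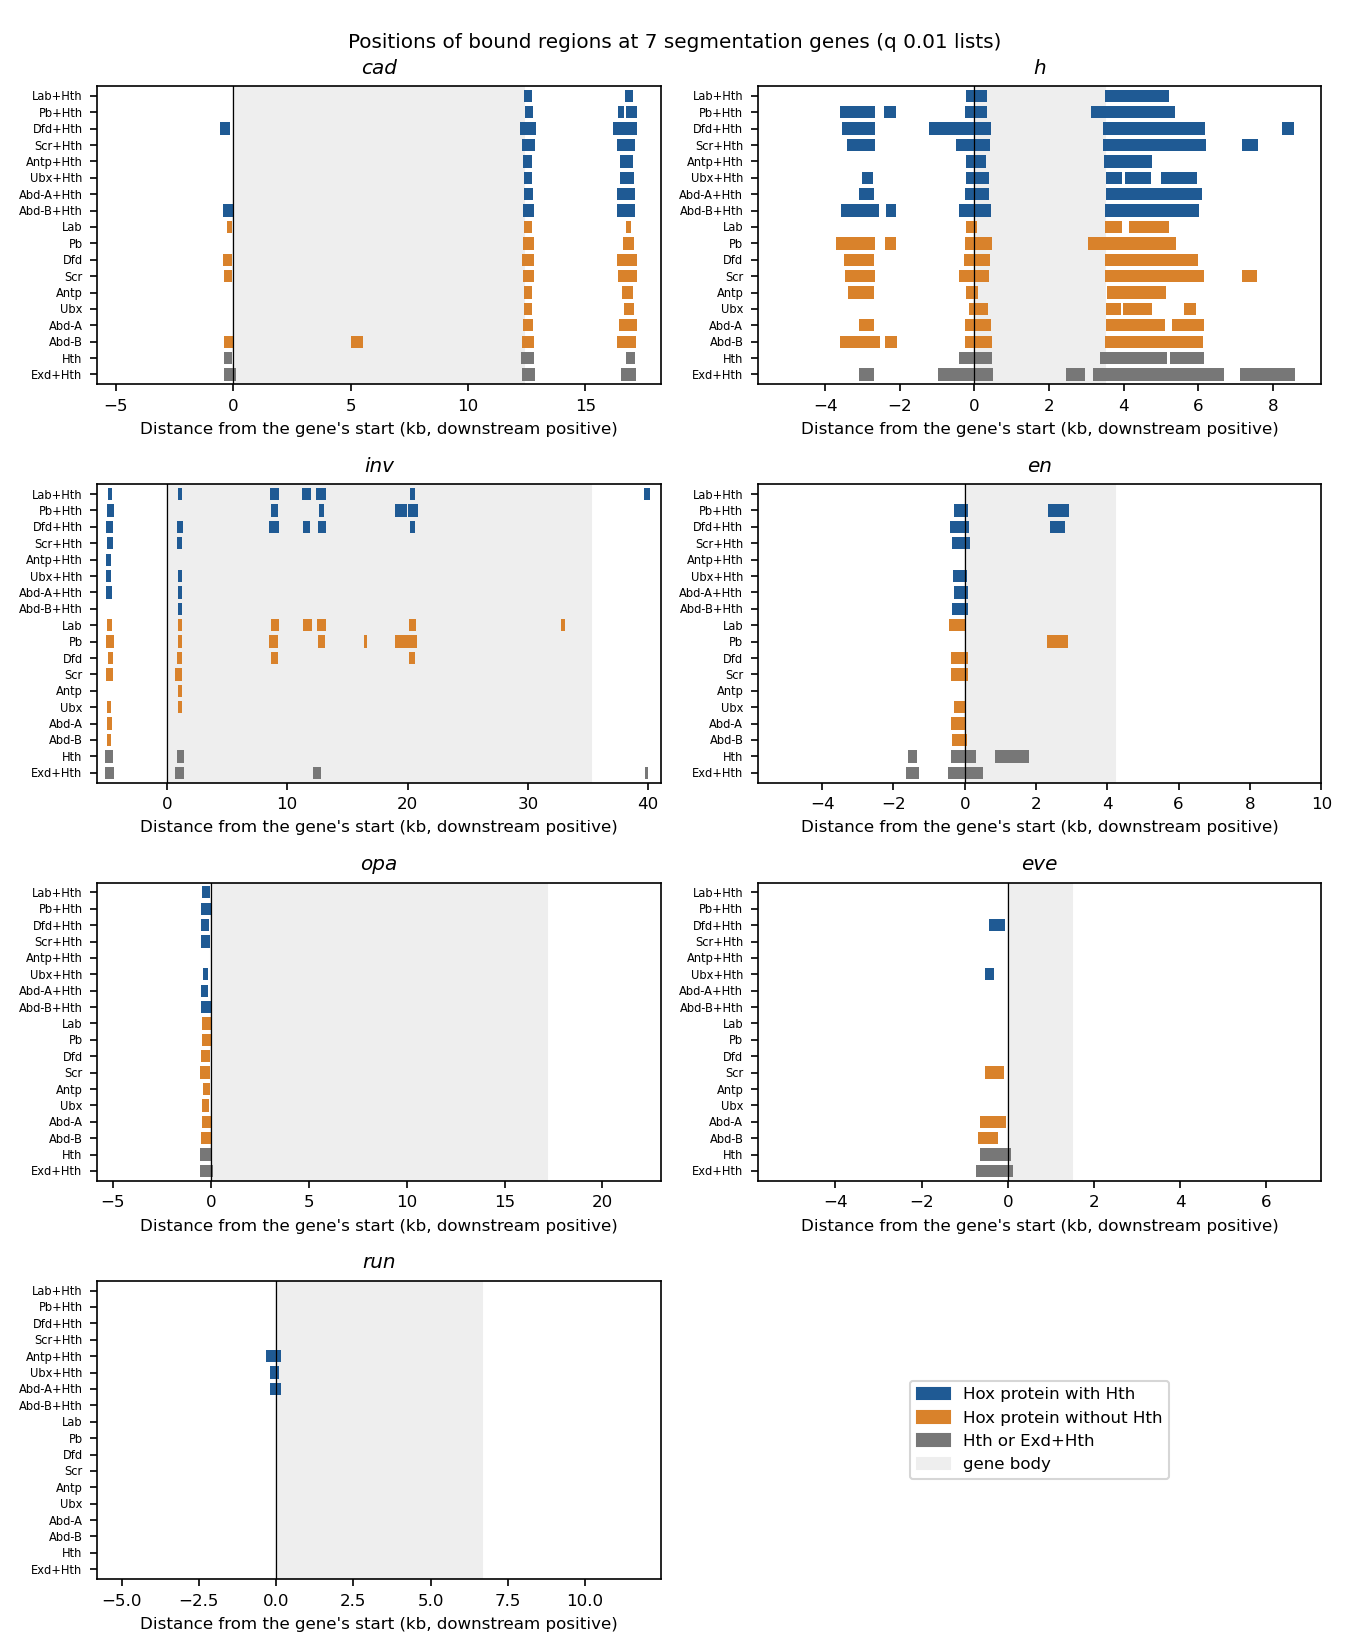
Position of each bound region (bar) at the 7 genes with any, as distance in kb from the gene's start with downstream positive, 1 row per list at q 0.01 with Hox proteins with Hth above those without. Grey shading is the gene body, and the panels show all-list sites at the cad end and downstream of h, intron sites of Lab, Pb and Dfd in inv, and sites at or just upstream of the starts of opa, eve and run.

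Opa (chr3R:4852813-4869979, plus strand), a zinc finger pair-rule gene of the Zic family, had a single site although its body is 17167 bp long. The merged site (chr3R:4852257-4852919) reached over the start of the gene, with its centre 225 bp upstream. Only the regions of Pb, Abd-A, Abd-B+Hth, Abd-B, Hth and Exd+Hth overlapped the start, and the others ended upstream of it. At this site all 8 Hox proteins were found without Hth, and all but Antp with Hth, together with Hth and Exd+Hth. The regions were 302 to 656 bp wide. At q 1e-10 the site was left in 5 lists, Abd-B+Hth, Abd-B, Lab, Scr and Hth. The segment of opa printed above is shared by all 17 regions and has no Exd-Hox sequence.

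Eve (chr2R:9979319-9980795, plus strand), a homeodomain repressor, had 7 regions at 1 site (chr2R:9978569-9979442), which also overlaps the antisense RNA gene asRNA:CR43948. Only the Hth and Exd+Hth regions reached the start of eve, and the Hox regions ended upstream of it. The proteins in the 2 conditions were different ones. Dfd+Hth and Ubx+Hth had a region there, against Scr, Abd-A and Abd-B without Hth, and Hth and Exd+Hth had one too. No protein had a region in both conditions, and no list had one at q 1e-10. Over all protein-coding genes, 13.4% had a region of Dfd only with Hth, and 11.5% one of Ubx. The shares with a region only without Hth were 7.03% for Scr, 3.01% for Abd-A and 4.32% for Abd-B. These differences were not tested. The regions were 214 bp (Ubx+Hth) to 874 bp (Exd+Hth) wide.

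Run (chrX:20690670-20697321, plus strand), the founding member of the Runx family, was the only gene of the 10 with regions of Hox proteins with Hth and none without. Antp+Hth, Ubx+Hth and Abd-A+Hth, the trunk proteins, each had 1 region there, of 486, 303 and 345 bp, and all other lists, Hth and Exd+Hth included, had none. The regions overlapped each other over 298 bp at the start of run, and the site (chrX:20690354-20690839) also overlaps the long noncoding RNA gene lncRNA:CR45610. Over all protein-coding genes, 4.70% had a region of Antp with Hth and none without, and the shares were 11.5% for Ubx and 6.06% for Abd-A. Regions of a stricter kind, set by the pattern at run, were few in these lists. Of all Antp+Hth regions, 80 of 2880 (2.78%) overlapped no region of Hth, Exd+Hth or any Hox protein without Hth, and the counts were 62 of 5656 (1.10%) for Ubx+Hth and 46 of 6506 (0.71%) for Abd-A+Hth. None of the 3 regions at run was found at q 1e-10.

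Odd (chr2L:3604224-3606756, minus strand), a zinc finger pair-rule gene, had no region in any list. Its nearest region was 5868 bp away, just outside the rule, and belonged to Dfd+Hth. The regions just inside the rule were a Dfd+Hth region 4753 bp from h and an Antp+Hth region 4681 bp from inv. Just outside it were an Exd+Hth region 5252 bp from h and an Exd+Hth region 5848 bp from cad. With 10 kb on each side, eve had a region in 15 lists and odd in 1, while hb and Kr still had none. The added regions of eve began 6285 bp from it.

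The segment polarity pair en and inv stand side by side on arm 2R, and their 5 kb windows do not overlap. Both encode homeodomain repressors. En (chr2R:11524006-11528210, minus strand) had 20 regions in 4 sites. The site over its start (chr2R:11527698-11528672) held 6 Hox proteins with Hth (Pb, Dfd, Scr, Ubx, Abd-A and Abd-B) and 6 without (Lab, Dfd, Scr, Ubx, Abd-A and Abd-B), and Hth and Exd+Hth. Antp had no region at en in either condition. At q 1e-10 the start site was left in 2 lists, Abd-A and the list of Hth by itself. An intron site (chr2R:11525279-11525891) held Pb and Dfd with Hth, against Pb without.

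At en the cofactors had sites that no Hox list shared. Hth had 3 regions and Exd+Hth 2, against 0 to 2 for each Hox list. A site 1.46 kb upstream of the start (chr2R:11529492-11529855) was found with Hth and Exd+Hth and with no Hox protein. A region over coding sequence (chr2R:11526395-11527358) was found with Hth alone. The share of all Hth and Exd+Hth regions that no Hox list overlaps was not counted. Such a region was not particular to en, since h had one of Exd+Hth. Hth covered 1926 bp at en and Exd+Hth 1339 bp, against at most 999 bp (Pb+Hth) for the Hox proteins.

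Inv (chr2R:11474465-11509695, plus strand), with a body of 35231 bp, had 56 regions in 9 sites, and its intron separated the head proteins from the rest. Lab+Hth had 7 regions at inv and Lab 7, Pb+Hth 5 and Pb 6, and Dfd+Hth 6 and Dfd 4. Scr and Ubx had 2 each in both conditions, Abd-A+Hth 2 and Abd-A 1, and Antp and Abd-B 1 each in both conditions. The 2 sites toward the start were the ones bound broadly. That 4.78 kb upstream of the nearest start (chr2R:11469323-11470051) was in 16 lists, and that at the second start (chr2R:11475131-11475924) in 14.

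The 6 sites from the intron to the end of the inv transcript held 24 regions, all of Lab, Pb, Dfd or Exd+Hth. Of them, the sites chr2R:11482990-11483791 and chr2R:11493417-11495375 held Lab, Pb and Dfd in both conditions. The site chr2R:11486613-11487715 held Lab, Pb and Dfd with Hth, against Lab and Pb without, and Exd+Hth. The site chr2R:11485690-11486511 held Lab and Dfd with Hth, against Lab without. Sites with 1 list each were chr2R:11490829-11491078 (Pb) and chr2R:11507243-11507528 (Lab). A further site past the end of the gene (chr2R:11514133-11514641) held Lab+Hth and Exd+Hth. No other Hox list, and not Hth, had a region in any of these. The site past the end of inv had its centre nearer to a start of en (13496 bp) than of inv (38.68 kb). The same held for the single-list site of Lab (20498 bp from a start of en, 31.68 kb from one of inv).

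Regions free of the 5 more posterior proteins were also counted over whole lists. Of the inv regions, 5 of 7 of Lab+Hth and 5 of 7 of Lab were free of Scr, Antp, Ubx and both Abd proteins in either condition, where the shares over all regions were 21.8% and 16.8%. The counts were 4 of 5 for Pb+Hth and 4 of 6 for Pb (24.4% and 23.6% of all regions), and 4 of 6 for Dfd+Hth and 2 of 4 for Dfd (30.8% and 12.9%). These regions share 1 gene and the class was set by the pattern at inv, so the counts describe inv and were not tested. At q 1e-10, inv kept regions of Lab, Pb and Dfd in both conditions (4 for Lab+Hth and 3 for Lab, 5 for Pb+Hth and 5 for Pb, 5 for Dfd+Hth and 2 for Dfd), 2 of Hth, and none of the other Hox proteins.

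Merged over all 18 lists, the 10 genes had 26 sites. Of these, 4 were bound in all 18 lists, 5 in 13 to 17, 12 in 2 to 12 and 5 in 1 list. Over all 16214 merged sites of the genome the shares were 5.36%, 11.9%, 52.8% and 30.0%. By position, 9 site centres were upstream of the gene, 5 downstream, 7 in introns, 4 in untranslated parts of the transcript and 1 in coding sequence. A start of the gene itself was overlapped by 7 sites and by 59 of the 214 regions. Over all regions, 36.9% overlapped a start of any protein-coding gene. That is a wider measure, since starts of neighbours such as Pomp were left out of the 59, so these values cannot be compared directly.

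The effect of Hth on each gene was tested as the mean, over the 8 Hox proteins, of the covered length with Hth minus that without, in an exact sign-flip permutation test (two-sided, all sign patterns, smallest possible p 0.0078 where all 8 proteins differ) run on all 11311 protein-coding genes with a Hox region in reach. No gene passed a Benjamini-Hochberg adjusted p of 0.05 (0% of those tested, smallest adjusted p 0.42), and 827 genes (7.31%) had an unadjusted p below 0.05, 819 of them with more covered length with Hth. An adjusted p of 0.05 would have needed 1768 genes tied at the smallest p, so the absence of called genes was close to fixed by the design and says nothing of stability. None of the 7 segmentation genes tested was among the 827, but run, with 3 proteins that differed, could not go below 0.25, and eve, with 5, not below 0.0625. The largest mean differences were at h, with 3736 bp with Hth against 3474 bp without, a difference of 262 bp with an SD of 754 over the 8 proteins (exact sign-flip p = 0.36, adjusted p = 1), and at run, with 142 bp against 0 bp and an SD of 202 (exact p = 0.25, adjusted p = 0.92). Inv averaged 1758 bp with Hth against 1621 bp without (exact p = 0.66), and en 458 bp against 389 bp (exact p = 0.42). Eve averaged 73.6 bp with Hth against 187 bp without (exact p = 0.38), and cad 1239 bp against 1271 bp (exact p = 0.78). The adjusted p was 1 at each of these 4 genes.

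Opa had the smallest p of the 7 genes, with 388 bp with Hth against 454 bp without, a difference of -66.0 bp with an SD of 121 (exact sign-flip p = 0.070, adjusted p = 0.69). It was lower with Hth for 6 of 8 proteins, and Antp, which lost the region, made -354 bp of the sum. Over all genes tested the median difference was 74.9 bp and 76.8% of genes had a mean above 0. At 4 of the 7 segmentation genes (h, run, inv and en) the mean was above 0 and at 3 (cad, opa and eve) below. The lists differ in total length, and once each was scaled to its own total, the difference at h, en and inv turned negative, at h to -135 bp per Mb of list (exact p = 0.016, adjusted p = 0.33), while opa stayed negative at -53.5 bp per Mb (exact p = 0.031, adjusted p = 0.35) and cad at -67.8 bp per Mb (exact p = 0.023, adjusted p = 0.35). With this scaling 3 of the 7 genes and 1226 of all 11311 genes (10.8%) had an unadjusted p below 0.05, and none passed the adjustment.

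**Figure D3:**
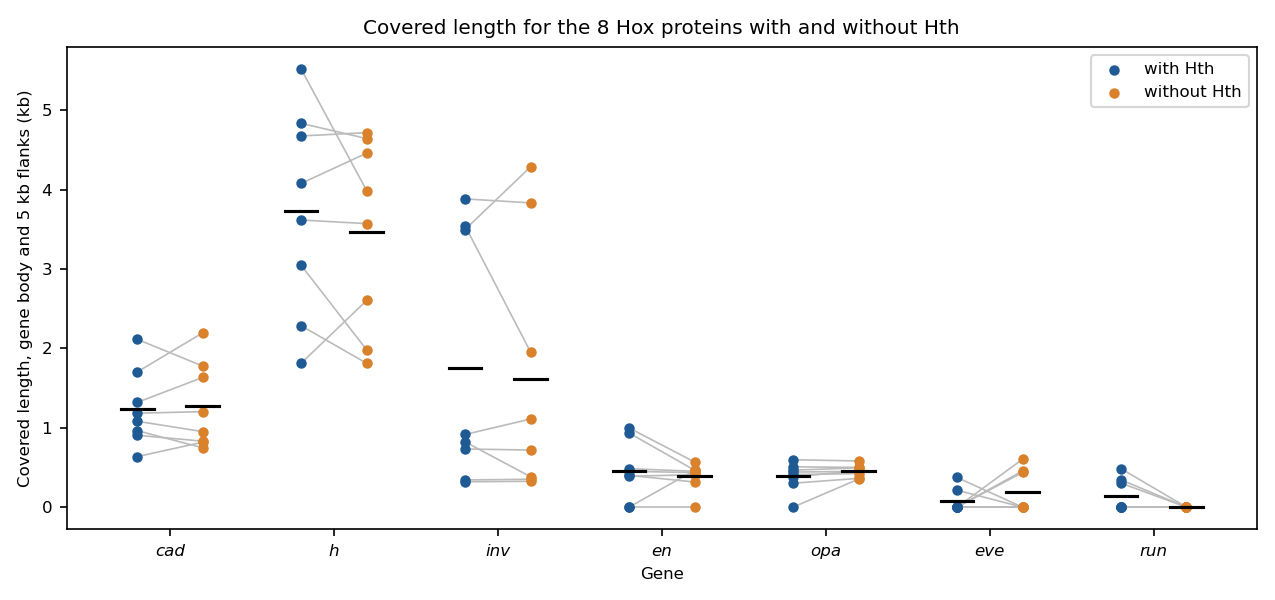
Covered length in kb within the gene body and 5 kb flanks, 1 point per Hox protein with Hth (left) and without Hth (right) at each of 7 genes, q 0.01 lists. Grey lines join the same protein, black bars are means over the 8 proteins, and the points of both conditions overlap at every gene, with run the one gene whose 8 points without Hth are all at 0.

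Compared region by region, most regions at these genes were found in both conditions. Of the 93 regions of Hox proteins with Hth, 15 (16.1%, Wilson 95% interval 10.0 to 24.9) were gained, meaning that the list of that protein without Hth had nothing overlapping them, against 26.6% of all 53231 regions. Of the 92 regions without Hth, 14 (15.2%, 9.29 to 23.9) were lost with Hth, against 14.1% of all 47678. The intervals cover the counting of regions, which share genes and sites and are not independent, and the difference was not tested. The gained regions were 6 at inv, 3 at run and 2 each at eve, h and en, with none at cad and opa. The lost ones were 5 at inv, 3 each at cad and eve, and 1 each at h, opa and en. By protein, Dfd had 5 gained and 0 lost regions, Ubx 3 and 0, and Abd-B 1 and 3, where 40.6%, 39.7% and 8.44% of all their regions with Hth were gained and 1.10%, 5.48% and 15.7% of all without were lost. Antp had 2 gained and 3 lost (36.5% and 44.2% of all).

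An Exd-Hox sequence lay in the central 200 bp of 8 of the 214 regions, against 6.54% of all regions. The count was 7 of 93 for Hox proteins with Hth (8.40% of all), 1 of 92 for those without (4.92% of all) and 0 of 29 for Hth and Exd+Hth. By class, 5 of 15 gained regions held one, against 2 of 78 common regions with Hth, where the shares over all regions were 15.9% and 5.69%. The 5 were the 3 regions of run, which share the single match printed above, the Dfd+Hth region in the en intron and the Lab+Hth region past the end of inv. At run the match lies 63 bp before the transcript start and overlaps a TTTATTA on the same strand. Of the regions without an overlap with Hth, Exd+Hth or any Hox list without Hth, 52.5% of those of Antp+Hth, 21.0% of Ubx+Hth and 17.4% of Abd-A+Hth held such a sequence. At cad the match printed above was covered by 12 lists but lay in the central 200 bp of the Pb+Hth region only, and at h it was covered by Dfd+Hth and Exd+Hth, outside the central 200 bp of their regions at q 0.01. At q 1e-10 the same match lay in the central 200 bp of a narrower Dfd+Hth region of h (chr3L:8674608-8675219), which was gained, and this was the 1 region of 100 with such a sequence.

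The intron sites of inv held another sequence in number. TTAAT followed by GA or TA (either strand) contains the TAAT core of homeodomain binding. It occurred 12 times in the 5222 bp of the 6 head-protein sites of inv, in each of the 6. In the 18684 bp of the other 20 sites it occurred 9 times. Both counts include matches overlapping on opposite strands, at chr2R:11483750-11483757 and chr2R:11475499-11475506. G and C made up 39.2% to 44.9% of the 6 sites and 39.1% to 62.2% of the others. The part of base composition in these counts was not tested. This sequence lay in the central 200 bp of 20 of the 24 regions of the 6 sites. For all 214 regions at these genes the count was 36, against 16.2% of all regions. Over all regions it lay in the central 200 bp of 22.6% for Lab+Hth and 25.3% for Lab, 31.2% for Pb+Hth and 29.4% for Pb, and 24.2% for Dfd+Hth and 21.7% for Dfd. The 24 regions overlap one another, so the 20 are not separate sequences. TGACAG, the core that Hth is known to bind, lay in the central 200 bp of 2 of 13 Hth regions and 2 of 16 Exd+Hth regions at these genes, where the shares of all regions were 16.2% and 15.8%. In every Hox list but Antp+Hth (0 of 6, against 10.5% of all) the share at these genes was above that of all regions. It was highest for Scr+Hth, at 4 of 10 against 7.35%. Regions of different lists overlap one another, and the differences were not tested.

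The 33 other segmentation genes were counted in the same lists. Of the 10 genes here, 7 had a region in at least 1 of the 18 lists, 3 in none and 3 in all 18, against 25, 8 and 8 of the 33. Over all protein-coding genes 16.3% were in none and 12.8% in all 18, and the differences were not tested. Of the 8 in all 18 lists, the 4 with most regions were ftz-f1, a nuclear receptor that works with the pair-rule protein Ftz, with 192 regions, fz with 126, ptc, the Hedgehog receptor, with 107, and fz2 with 81, where fz and fz2 encode Wingless receptors. All 4 have bodies longer than the median of 4586 bp over the 33 genes, and the part of length in these counts was not tested. Those in none were ftz, prd, slp1 and sob of the pair-rule tier and its relatives, and gt, hkb, kni and tll of the gap tier. At q 1e-10, 5 of the 10 genes (cad, h, opa, en and inv) had a region in at least 1 of 17 lists, where 68.3% of all protein-coding genes did.

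**Figure D4:**
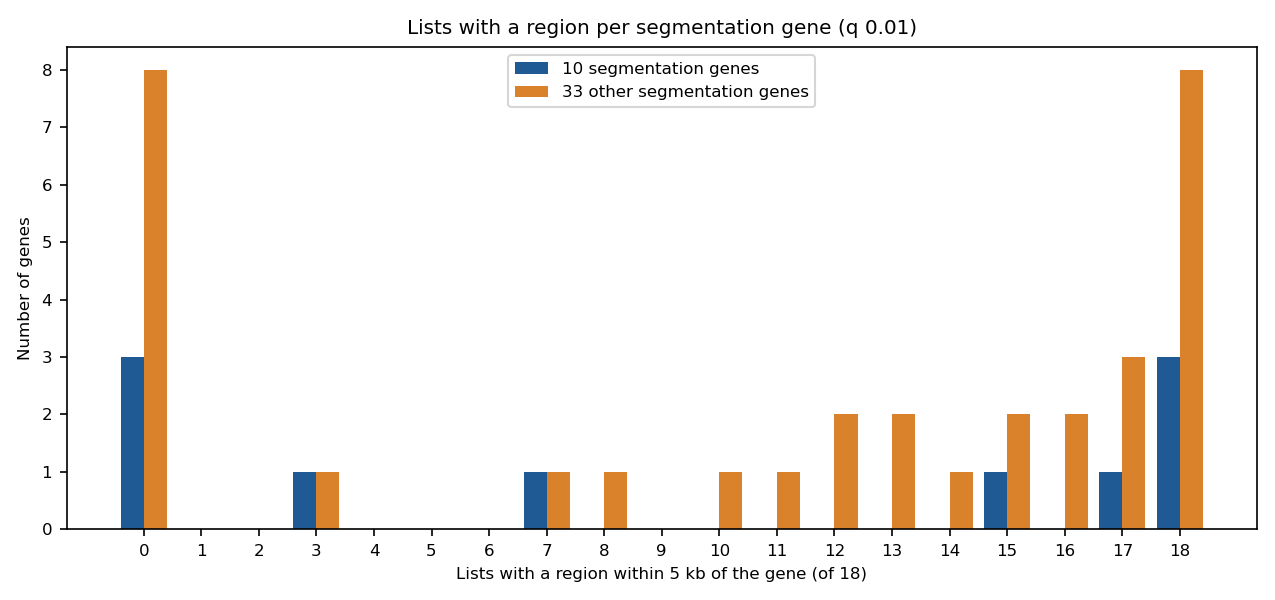
Number of genes (bars) by the number of the 18 lists at q 0.01 that have a region within 5 kb, for the 10 segmentation genes (left bar of each pair) and the 33 other segmentation genes (right bar). There were 3 and 8 genes in no list and 3 and 8 genes in all 18, where 16.3% and 12.8% of all protein-coding genes stood.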

How the data were processed

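Reads had been mapped by the authors to dm6 (Bowtie 1.2.2, per the processing notes and the study's methods), who called peaks per replicate against input with MACS2 2.1.1.20160309 at q-value thresholds of 0.01 and 1e-10. A bound region is the union of overlapping peaks of both replicates. The deposited lists give arm, start, end and group. Their score column is 0 throughout, so depth and height are unknown, and each list is limited by the weaker library. Regions over exons on the plasmids had been removed by the authors.

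Positions were counted from 1. No region ended beyond its arm in the Release 6 reference, and gene models were those of Ensembl release 115, with 41 of 43 genes matched by symbol and 2 by synonym. Regions overlapping a gene body or its 5 kb flanks were assigned to that gene. Lists of 1 protein with and without Hth were compared by an overlap of at least 1 bp, and sequences were sought in the central 200 bp. The covered length per gene was tested by sign-flip permutation over the 8 Hox proteins, adjusted over all genes, with a threshold of 0.05. The p measures uniformity over 8 proteins, which are no replicates. TGACAG and the empty stretches were added after values were seen. The counts free of the 5 more posterior proteins and of TTAAT in the inv sites were not planned and follow the pattern at inv. Likewise, the regions overlapping no list of Hth, Exd+Hth or a Hox protein without Hth follow the pattern at run. Named were all 10 genes, the 4 other segmentation genes in most lists (among ties, those with most regions), and neighbours holding or starting nearer to a site. The 8 genes in no list were named after their values were seen. Members and lists were chosen with earlier results of these data known. Alternatives were the 1e-10 lists, other windows, overlaps and sequences, counts of regions, scaling to list length and leaving out each protein. Functions were tested on simulated data with Python 3.11.15, numpy 2.4.6 and scipy 1.17.1, and figures drawn with matplotlib.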

Additional observations from a re-analysis of the deposited data

How the results depend on the processing

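No paired analysis was possible because the lists pool both replicates of a group, meaning no replicate number could serve as a block and no replicate could be left out; the covered-length test pairs lists by protein instead. No gene passed its adjusted threshold under the 14 alternatives, which the test's smallest p left little room for. The number of genes with an unadjusted p below 0.05 was 827 of 11311 tested as reported. It was 524 of 9380 in the q 1e-10 lists, 448 of 7082 for gene bodies alone and 508 of 8753 with 1 kb on each side. By number of regions it was 111 of 11311, without Scr 540 of 11293 and without Ubx 539 of 11289. Leaving out Lab, Dfd, Antp or Abd-A gave 575 to 725. It was higher with 10 kb on each side (1173 of 12451), scaled to list length (1226 of 11311), without Pb (878 of 11248) and without Abd-B (832 of 11011). Mean differences that changed sign, none of them called, were at cad 7.62 bp with 10 kb on each side, 9.14 bp without Scr and 34.7 bp without Abd-B, at en -31.2 bp in the q 1e-10 lists and -21.7 bp per Mb scaled to list length, at h -0.12 regions by number and -135 bp per Mb scaled, and at inv -109 bp per Mb scaled and -71.3 bp without Dfd. The cause was not tested. In the q 1e-10 lists 17 of 80 pairs with Hth and 22 of 80 without had a region, and the regions were 9 gained, 38 common with Hth, 37 common without and 7 lost. With central 200 bp windows 23 were gained and 22 lost, and the share gained was 24.7% against 36.1% of all regions. Regions with an Exd-Hox sequence numbered 1 of 100 in the q 1e-10 lists, 26 of 214 over whole regions and 86 of 214 with 6-base cores, against 7.57%, 19.4% and 41.5% of all regions. Run and eve had no region at q 1e-10, so their values rest on the q 0.01 lists.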
